A study of Mus musculus with 12 samples.

Results

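The mitochondrial genome of the mouse carries 37 genes, and all of them were measured in colon and urinary bladder of control mice and of mice that lost YAP and TAZ in smooth muscle. The members were all genes that the deposited tables place on the reference MT, 37 of 54532 genes. They comprised 13 protein-coding genes, 2 rRNA genes, and 22 tRNA genes, of which 14 lay on the plus strand and 8 on the minus strand. In all cases start, end, and strand were those of GENCODE M21 for GRCm38.

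The mitochondrial genome encodes subunits of respiratory complexes I, III, and IV and of the ATP synthase, while the nucleus encodes their remaining subunits and all of complex II. It is transcribed from both strands into long RNAs. The tRNAs that lie between most genes are excised, which releases the mRNAs and rRNAs, and most mRNAs then receive a short poly(A) tail. Complex I (mt-Nd genes) takes electrons from NADH, complex III (mt-Cytb) passes them to cytochrome c, complex IV (mt-Co genes) passes them to oxygen, and the ATP synthase (mt-Atp genes) uses the resulting proton gradient. In muscle and in transporting epithelium, mitochondrial mRNAs are among the most abundant of all.

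All mice were male, carried floxed Yap1 and Wwtr1 (the gene of TAZ), were 5 to 7 weeks old, and received tamoxifen at 1 mg per mouse per day on 5 successive days. Tissue was taken on day 7 counted from the first injection. Mice with Myh11-CreERT2, in which the smooth muscle myosin promoter drives a tamoxifen-inducible recombinase, are called Y/T KO, and mice that lacked it are called Ctrl. There were 3 libraries per genotype and tissue, 12 in all, from 9 mice, of which 3 (788, 783, and 780) gave both tissues. Whole tissue was homogenised, so smooth muscle was sampled with all other cells, and poly(A)-selected stranded libraries were sequenced. Values are TPM, a level scaled to gene length and to the total of the library.

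Aligned bases ran from 2.80 to 3.94 gigabases per library. Smooth muscle marker genes were present in all libraries. Of the colon epithelial markers, Muc2 was near 0 (0.03 to 0.92 TPM) in all colon libraries. Yap1 in the bladder was 98.6 to 110 TPM in Ctrl and 69.4 to 72.1 in Y/T KO, in the colon 45.8 to 54.9 and 41.3 to 47.0, and Wwtr1 overlapped between genotypes in both tissues. These whole-gene values separated the genotypes for Yap1 in the bladder only. The 7 summed smooth muscle markers were lower in Y/T KO in both tissues (colon 4912 to 5777 against 7476 to 8225 TPM, bladder 16545 to 30414 against 34863 to 45428). Not every marker followed the sum. Cnn1 and Des overlapped between genotypes in the colon. In the bladder Myh11 (1499 to 2722 TPM in Y/T KO, 2454 to 2652 in Ctrl) and Smtn overlapped. The other markers of each tissue were lower in all Y/T KO libraries. In whole tissue, fewer cells of a type and less RNA per cell cannot be told apart.

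The ends of the rRNA genes are shown first, since mt-Rnr1 was the member called between genotypes in the bladder. mt-Rnr1, the 12S rRNA of the small mitochondrial ribosomal subunit, lies at MT:70-1024, plus strand, and mt-Rnr2, the 16S rRNA of the large subunit, at MT:1094-2675. mt-Tv lies between them.
mt-Rnr1 first 60 bases: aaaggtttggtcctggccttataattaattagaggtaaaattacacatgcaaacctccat
mt-Rnr1 last 60 bases: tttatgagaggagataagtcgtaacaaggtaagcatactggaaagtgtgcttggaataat
mt-Rnr2 first 60 bases: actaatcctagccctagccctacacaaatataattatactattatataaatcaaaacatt
mt-Rnr2 last 60 bases: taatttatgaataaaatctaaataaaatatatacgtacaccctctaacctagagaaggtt

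The tRNA genes that differed between tissues in both genotypes in the same direction (mt-Tv, mt-Tm, and mt-Tw) and the most abundant tRNA gene (mt-Tl1) are given whole, with their GRCm38 coordinates, 5′ to 3′ on the plus strand. mt-Tv (valine) lies at MT:1025-1093, mt-Tl1 (leucine) at MT:2676-2750, mt-Tm (methionine) at MT:3845-3913, and mt-Tw (tryptophan) at MT:4950-5016.
mt-Tv: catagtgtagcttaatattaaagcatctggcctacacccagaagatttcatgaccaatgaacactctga
mt-Tl1: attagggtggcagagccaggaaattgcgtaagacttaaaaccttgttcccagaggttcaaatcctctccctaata
mt-Tm: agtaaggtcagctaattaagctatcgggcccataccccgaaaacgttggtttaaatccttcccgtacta
mt-Tw: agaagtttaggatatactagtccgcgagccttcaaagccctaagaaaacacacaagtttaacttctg

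Mitochondrially encoded genes took between 1.88% and 7.65% of all TPM in a library. Their sum in Ctrl colon was 39629 TPM for mouse 788, 76504 for mouse 786, and 47599 for mouse 787. For Y/T KO colon the sum was 40397 TPM for mouse 759, 18808 for mouse 783, and 30886 for mouse 780. Ctrl bladder gave 44441 (mouse 784), 39385 (785), and 42919 (788) TPM, and Y/T KO bladder gave 42181 (782), 44166 (783), and 46929 (780). The colon libraries thus varied widely within a genotype and overlapped between genotypes, with Ctrl mouse 786 highest and Y/T KO mouse 783 lowest. The 6 bladder libraries lay close together. Bladder of the same mouse 783 was not low.

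Protein-coding genes made up most of this sum. By group, they gave 51827 ± 19200 TPM in Ctrl colon, 28206 ± 10098 in Y/T KO colon, 40654 ± 2499 in Ctrl bladder, and 42369 ± 2354 in Y/T KO bladder (SD, n = 3 each). The rRNA genes gave 2281 to 2374 TPM in Ctrl colon and 737 to 2088 in Y/T KO colon. For bladder the sums were 793 to 869 TPM in Ctrl and 1399 to 1482 in Y/T KO, with no overlap. The tRNA genes together gave 129 to 865 TPM per library.

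mt-Co1, the catalytic subunit of complex IV, was the most abundant member and ranked between 1 and 4 among all genes in every library. Ctrl colon held 16618, 33319, and 18920 TPM of it, and Y/T KO colon 15128, 7239, and 12477. Values for bladder were 14566, 12784, and 14043 in Ctrl and 13950, 14794, and 15371 in Y/T KO. In the colon all Y/T KO values lay below all Ctrl values, while in the bladder the genotypes overlapped.

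mt-Cytb, the cytochrome b of complex III, followed at ranks 2 to 9. Ctrl colon had 9521, 15805, and 10458 TPM of it, and Y/T KO colon 9089, 4722, and 7438. In Ctrl bladder it was at 9901, 9056, and 9960 TPM and in Y/T KO bladder at 10615, 11171, and 11469. Neither tissue showed an overlap of genotypes, with Y/T KO lower in the colon and higher in the bladder.

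Of the complex I genes, mt-Nd1 ranged from 2772 to 11729 TPM, mt-Nd2 from 993 to 4582, and mt-Nd5 from 637 to 3277. In each of these 3 genes the lowest value was that of the colon of Y/T KO mouse 783. mt-Nd1 and mt-Nd2 were highest in the colon of Ctrl mouse 786, as was mt-Nd5. mt-Nd6, the only protein-coding gene on the minus strand, was far lower than its neighbours mt-Nd5 and mt-Cytb, at 53.3 to 180 TPM.

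**Figure D1:**
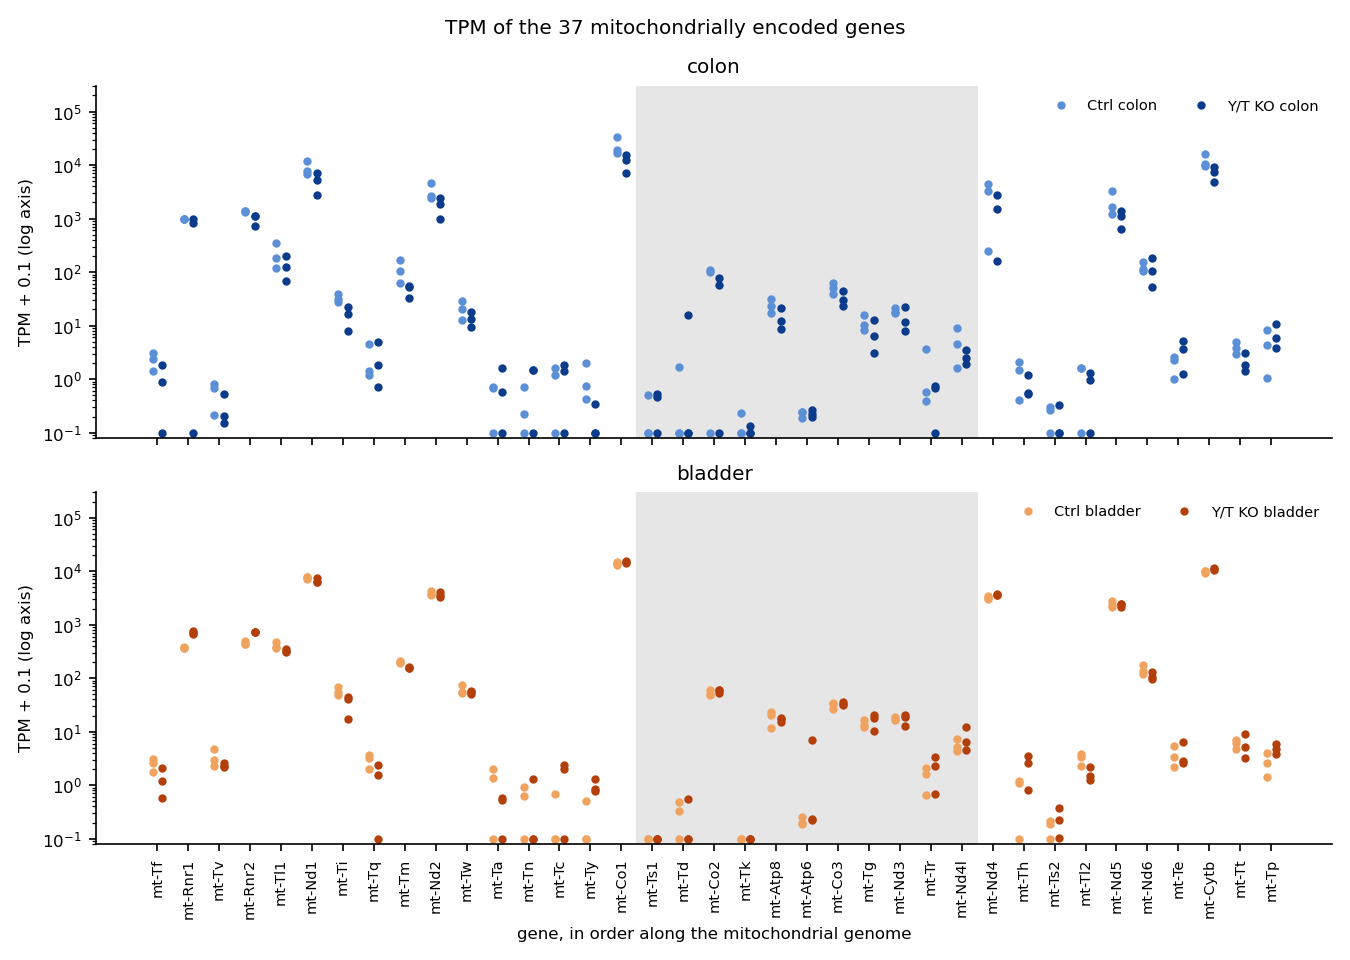
TPM plus 0.1 on a log axis for each of the 37 genes in the order of the mitochondrial genome, with 1 point per library, colon above and bladder below. The gray band marks the 11 genes that lie wholly inside a stretch with annotated copies on chromosome 1; no mRNA in it exceeded 110 TPM, while mt-Nd1, mt-Nd2, mt-Co1, mt-Nd5, and mt-Cytb stood between 637 and 33319 TPM.

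The low mRNAs lay mostly in 1 part of the genome. mt-Nd6 (53.3 to 180 TPM) was low outside it, and mt-Nd4, partly inside, reached 4424 TPM. The 6 mRNAs mt-Co2, mt-Atp8, mt-Atp6, mt-Co3, mt-Nd3, and mt-Nd4l were listed at 0 to 110 TPM, and together at 41.8 to 226 TPM per library. They lie side by side, within MT:6390-11042, a stretch of 4653 bases bounded by the first and last bases that aligned to annotated copies on the minus strand of chromosome 1 (chr1:24611535-24616197, GRCm38). By blastn, Gm28661 was 100% identical to mt-Co2 over 681 bases, Gm10925 to mt-Atp6 over 678, Gm28437 to mt-Co3 over 783, and Gm10222 to mt-Nd4l over 294. Gm28438 matched mt-Nd3 over 345 bases with 1 substitution, and Gm28439 matched the first 876 bases of mt-Nd4. Of mt-Atp8, only the last 43 bases aligned to these copies, in Gm10925. Gm29216 matched bases 1063 to 1545 of mt-Co1, also with 1 substitution. Reads from such sequences cannot be assigned to a single place, and how the alignment and quantification treated them was not tested, so the levels of these mRNAs are uncertain. mt-Nd1, mt-Nd2, mt-Co1, mt-Nd5, and mt-Cytb also had less close nuclear matches. Identity ran from 76.6% for mt-Nd1 (Gm11834, 509 bases) to 97.6% for mt-Co1 (Gm13340, 1545 bases). The part of these matches in the levels was not tested.

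The 2 substitutions are shown in capitals, with positions counted from 1 at the first base of the mitochondrial gene and the mitochondrial base named first: T3C in mt-Nd3 (MT:9459-9498 against chr1:24613080-24613119, minus strand) and A1066T in mt-Co1 (MT:6390-6429 against chr1:24616149-24616188, minus strand).
mt-Nd3 window: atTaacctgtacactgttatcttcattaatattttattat
Gm28438 window: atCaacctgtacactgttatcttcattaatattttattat
mt-Co1 window: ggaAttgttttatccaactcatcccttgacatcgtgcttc
Gm29216 window: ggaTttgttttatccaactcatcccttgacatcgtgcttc

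The copies had values of their own. Gm29216 was at 38.5 to 80.8 TPM, Gm10925 at 23.1 to 48.2, Gm28437 at 23.5 to 46.2, and Gm28661 at 21.3 to 44.5. These levels were similar in size to those of mt-Co3, the third subunit of complex IV, at 23.4 to 62.3 TPM. mt-Atp6, the proton channel subunit of the ATP synthase, stood at 0.09 to 0.17 TPM in 11 libraries and at 7.00 in the bladder of Y/T KO mouse 780, well under its copy Gm10925 in every library.

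mt-Atp8, a small subunit of the ATP synthase, shares its last 43 bases with the start of mt-Atp6, shown in capitals (MT:7766-7969, plus strand). It was listed at 8.50 to 31.8 TPM.
mt-Atp8: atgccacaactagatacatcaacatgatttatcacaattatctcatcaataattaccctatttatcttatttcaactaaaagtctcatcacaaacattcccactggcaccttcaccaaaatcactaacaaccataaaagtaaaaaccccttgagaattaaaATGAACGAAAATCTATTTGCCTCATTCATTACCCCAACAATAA

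Several genes had single libraries that stood apart. mt-Co2, a copper-binding subunit of complex IV, was listed at 0 in the colon of Ctrl mouse 788 and of Y/T KO mouse 783, at 57.7 to 110 TPM in the other 4 colon libraries, and at 49.2 to 60.5 in the bladder. mt-Nd4, a proton-pumping subunit of complex I, was at 244 TPM in the colon of Ctrl mouse 788 and at 162 in that of Y/T KO mouse 780. In the other colon libraries it was at 4424, 3285, 2744, and 1483 TPM, and in the bladder at 3013 to 3752. mt-Rnr1 was listed at 0 in the colon of Y/T KO mouse 783 only, although mt-Rnr2 was at 737 TPM in that library. Because an abundant RNA was listed at 0 there, these zeros may be failed estimates, and no mean or fold change between genotypes is given for mt-Rnr1 or mt-Co2 by itself in the colon. Both genes enter the sums, counts, and medians over members.

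In the bladder, mt-Rnr1 rose in Y/T KO. Ctrl libraries held 376, 359, and 373 TPM, and Y/T KO libraries 672, 707, and 754. All 3 Y/T KO libraries lay well above all 3 Ctrl libraries, with little spread in either group. After rescaling by size factors the means were 368 ± 14.9 and 707 ± 56.4 TPM (SD, n = 3), a log2 fold change of 0.94 (SE 0.09, adjusted p by limma = 0.0148). By p it ranked 22 of 18237 genes. It was the only member called at an adjusted p under 0.05 of 31 tested in the bladder, where 0.302% of all genes tested were called, 0.0823% higher and 0.219% lower.

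mt-Rnr2 had the same direction and did not pass the test. It was at 493, 433, and 428 TPM in Ctrl bladder and at 728, 740, and 728 in Y/T KO bladder. The groups did not overlap (log2 fold change 0.70, SE 0.10, adjusted p by limma = 0.0625). It passed with TPM as deposited (adjusted p by limma = 0.0444) and with TPM rescaled to the nuclear sum (0.0438).

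The rRNA difference was also seen relative to mitochondrial mRNA. As a percentage of the summed TPM of the 5 abundant mRNAs mt-Nd1, mt-Nd2, mt-Co1, mt-Nd5, and mt-Cytb, mt-Rnr1 was 0.958% to 1.04% in Ctrl bladder and 1.84% to 1.85% in Y/T KO bladder. mt-Rnr2 was 1.13% to 1.26% and 1.78% to 2.01%. The mRNA sum itself overlapped between genotypes, at 34614 to 39262 and 36245 to 40791 TPM.

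The call for mt-Rnr1 depended on the fit more than the direction did. It was lost without the trend and robust options (adjusted p by limma = 0.0543) and when 5 of the 6 libraries were left out in turn (each Ctrl library, and those of mouse 783 or 780), with adjusted p from 0.0518 to 0.112 and a log2 fold change from 0.90 to 0.98. It was also lost with all 12 libraries in 1 fit (0.948), and it returned when the colon library of mouse 783, in which the gene was listed at 0, was left out of that fit (log2 fold change 0.94, adjusted p by limma = 0.0132).

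Beside the lower smooth muscle marker sum, 2 Y/T KO bladder libraries stood apart in striated muscle genes. The 7 striated muscle markers summed to 6132 TPM in Y/T KO mouse 783 and to 6786 in Y/T KO mouse 780, against 1265 in Y/T KO mouse 782 and 1364 to 1993 in Ctrl. mt-Rnr1 was at 672 TPM in mouse 782, which had the lowest striated sum, at 707 in mouse 783, and at 754 in mouse 780. The parts of the smooth muscle and striated muscle markers in the result were not tested. Among other RNAs that lack a poly(A) tail, chosen after the rRNA values were seen, Rn7sk overlapped between genotypes in the bladder (25.9 to 26.9 TPM in Ctrl, 16.2 to 38.7 in Y/T KO). The sums of snRNA genes (48.9 to 60.6 and 53.5 to 75.6) and of snoRNA genes (327 to 552 and 285 to 477) overlapped as well. The sum of histone cluster genes, whose replication-dependent mRNAs also lack the tail, was 162 to 263 TPM in Ctrl and 265 to 302 in Y/T KO bladder, with no overlap. Of all single genes tested in the bladder, 10.6% had every Y/T KO library above every Ctrl library. The part of poly(A) selection in the rRNA result was not tested.

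**Figure D2:**
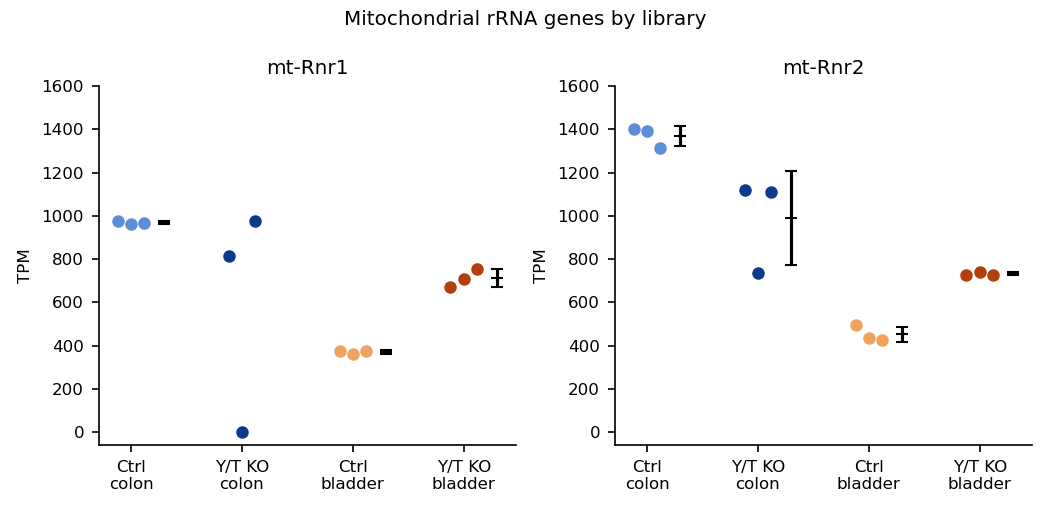
TPM of mt-Rnr1 and mt-Rnr2 in each library by group, with the group mean and SD (n = 3) at the right of the points where no library is listed at 0. In the bladder the Y/T KO points (672 to 754 and 728 to 740 TPM) lie above the Ctrl points (359 to 376 and 428 to 493), while in the colon mt-Rnr2 is lower in Y/T KO and 1 library has mt-Rnr1 at 0.

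In TPM, the rRNA genes of the colon did not follow those of the bladder. For mt-Rnr1, Ctrl libraries were at 975, 961, and 966 TPM, and those of Y/T KO at 812, 0, and 978. For mt-Rnr2, Ctrl libraries were at 1399, 1390, and 1314 TPM, and those of Y/T KO at 1119, 737, and 1110. All Y/T KO values of mt-Rnr2 were thus lower (log2 fold change -0.46, SE 0.20, adjusted p by limma = 0.518), opposite in TPM to the bladder. The difference between the tissues in this effect was -1.18 on the log2 scale (SE 0.22, adjusted p by limma = 0.124), which did not pass the test. As a percentage of the 5 abundant mRNAs, mt-Rnr2 was 2.02% to 3.82% in Ctrl colon and 3.19% to 4.51% in Y/T KO colon. These ranges overlapped, and the Y/T KO mean was higher (3.88% against 3.01%), as in the bladder.

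Among the remaining members, none was called in either tissue at an adjusted p under 0.05. In the colon 30 members were tested with limma and 0 were called, where 0.137% of all genes were called. At an unadjusted p under 0.05 there were 8 members, all lower in Y/T KO, beside 4.59% of all genes that were lower at that p. The estimate was below 0 for 25 of the 30, with a median log2 fold change of -0.65 (0.01 over all genes). Without mt-Rnr1 and mt-Co2 it was below 0 for 23 of 28, with a median of -0.65. These counts are not of independent observations. mt-Nd1, mt-Nd2, mt-Co1, mt-Nd5, and mt-Cytb were all highest in Ctrl mouse 786 and lowest in Y/T KO mouse 783. mt-Co1 had a log2 fold change of -0.94 (SE 0.33, adjusted p by limma = 0.461), mt-Nd2 of -0.86, mt-Nd1 of -0.83, and mt-Cytb of -0.73. Of the tested members, 5 (mt-Rnr2, mt-Ti, mt-Tm, mt-Co1, and mt-Cytb) had all 3 Y/T KO values under all 3 Ctrl values, as had 7.87% of all genes tested. The marker sums for smooth muscle and for colon epithelium (3409 to 4528 TPM in Y/T KO, 4798 to 5505 in Ctrl) were lower in the same libraries, and their part was not tested. The epithelial markers were not uniform. Car1 (300 to 891 TPM in Y/T KO, 1157 to 1553 in Ctrl), Slc26a3 (182 to 362, 403 to 689), and Vil1 (303 to 323, 338 to 370) were lower. Epcam (1488 to 1813, 1476 to 1822), Cdh1, Krt20, Lgr5, and Muc2 overlapped between genotypes.

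In the bladder no protein-coding gene was called. Of the 31 members tested, 16 had estimates below 0 and 15 above, with a median log2 fold change of -0.04. mt-Cytb (0.20, SE 0.08, adjusted p by limma = 0.323) and mt-Nd4 (0.20, SE 0.07, 0.262) were higher in all Y/T KO libraries. mt-Tm (-0.37, SE 0.07, adjusted p by limma = 0.118), mt-Tl1 (-0.34), and mt-Ti (-0.86) were lower in all of them. All 3 Y/T KO values lay above all Ctrl values for 5 of 31 members, beside 10.6% of all genes, and below for 4, beside 11.4%.

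**Figure D3:**
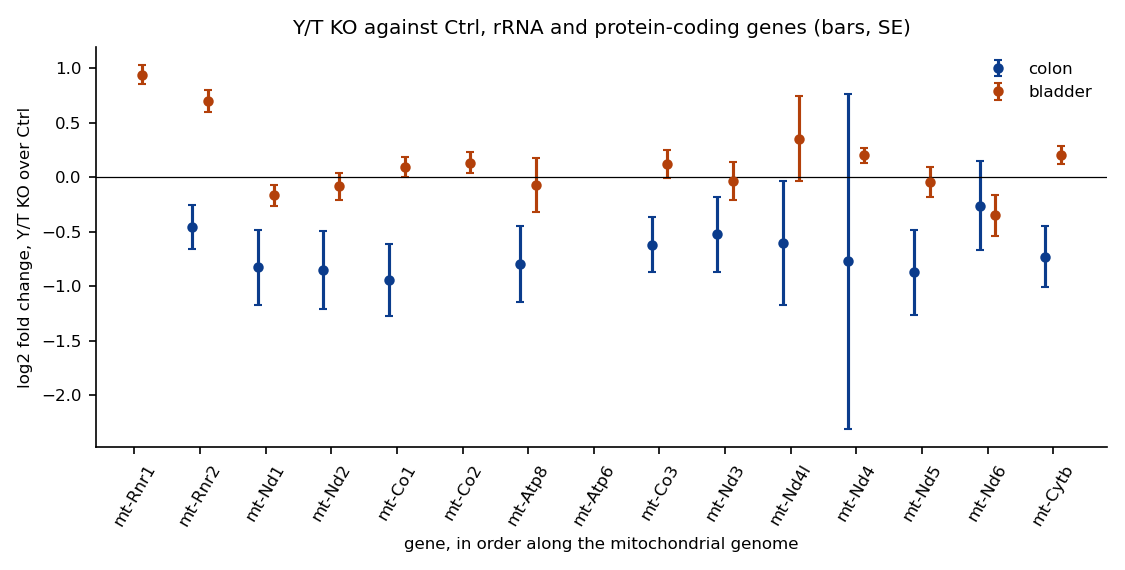
Log2 fold change of Y/T KO over Ctrl for rRNA and protein-coding genes in genome order, with bars for the SE (n = 3 per group) and points for colon and bladder. Genes listed at 0 in a library of that tissue or not tested are left out; mt-Rnr1 (0.94) and mt-Rnr2 (0.70) stand apart in the bladder, while colon estimates lie below 0.

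The knockout effect was compared between the tissues for 29 members. With limma 0 were called, where 0.0491% of all genes were, and 4 were lower in the colon at an unadjusted p under 0.05 (mt-Rnr2, mt-Cytb, mt-Co1, and mt-Co3), as were 5.61% of all genes. With the mouse as a block 0 were called as well. Of the 29, 2 (mt-Rnr2 and mt-Cytb) had all Y/T KO values below all Ctrl values in the colon and above them in the bladder, as had 0.779% of all genes.

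Colon and bladder differed in how mitochondrial mRNA was divided among genes. mt-Co1 made up 45.4% to 48.5% of the 5 abundant mRNAs in Ctrl colon and 43.2% to 44.3% in Y/T KO colon, against 36.9% to 37.2% and 37.7% to 38.5% in the bladder. mt-Nd2 made up 6.07% to 7.03% in all colon libraries and 8.99% to 10.7% in all bladder libraries. mt-Nd5 made up 3.31% to 4.77% and 5.77% to 7.02%. The tissues did not overlap for any of these 3 genes. Within the bladder the shares of mt-Cytb (28.1% to 29.3% against 25.2% to 26.4%) and mt-Co1 were higher in Y/T KO, again without overlap. Those of mt-Nd1 (16.4% to 18.3% against 19.9% to 20.3%) and mt-Nd2 (8.99% to 9.87% against 9.98% to 10.7%) were lower, also without overlap. The share of mt-Nd5 overlapped between genotypes. A higher share of any gene lowers the others. In levels, 10.6% of all genes tested in the bladder had every Y/T KO library above every Ctrl library, and 11.4% below. No such rate was obtained for shares. With 3 libraries against 3, an exact permutation test cannot go below 0.1.

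**Figure D4:**
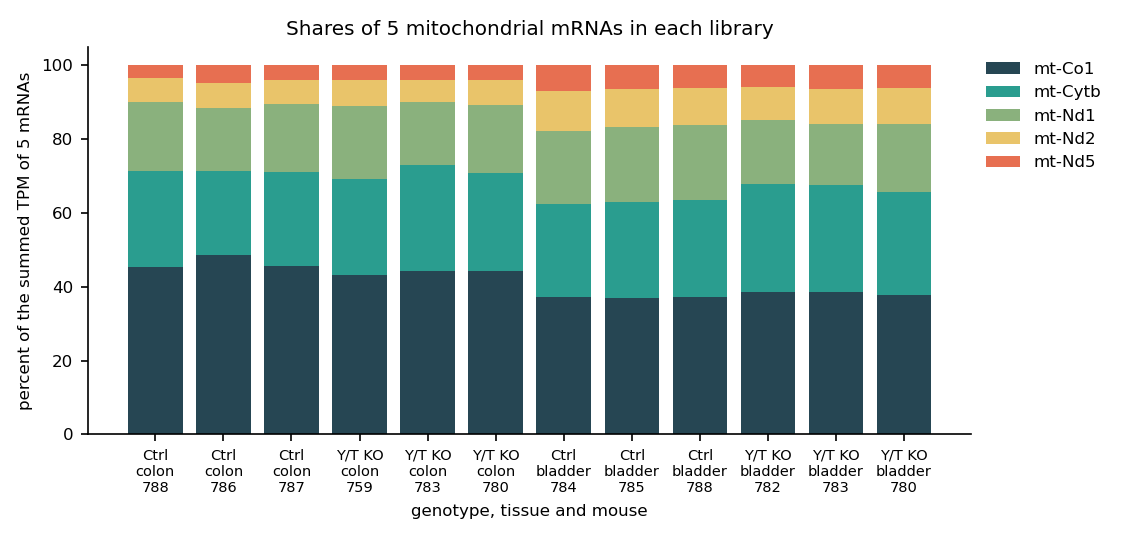
Percentage of the summed TPM of mt-Co1, mt-Cytb, mt-Nd1, mt-Nd2, and mt-Nd5 that each took, as stacked bars for the 12 libraries in order of tissue and genotype. mt-Co1 fills 43.2% to 48.5% in colon and 36.9% to 38.5% in bladder, and mt-Nd2 and mt-Nd5 fill more in bladder.

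The levels of members also differed between tissues. In Ctrl mice 7 of 32 members tested were called, beside 50.4% of all genes (25.1% higher and 25.3% lower in the colon). Higher in the colon were mt-Rnr2 (log2 fold change 1.86, SE 0.16, adjusted p by limma = 1.87e-06), mt-Co3 (0.95, SE 0.22), mt-Co1 (0.93, SE 0.27), and mt-Ty (2.47, SE 0.80, at 0 to 1.94 TPM in all libraries). Lower in the colon were mt-Tv (-2.47, SE 0.57), mt-Tw (-1.38, SE 0.28), and mt-Tm (-0.71, SE 0.28). mt-Co1 fell out with TPM as deposited (adjusted p by limma = 0.0666) and rescaled to the nuclear sum (0.0714), settings that moved the median of all genes to -0.24 and -0.22. mt-Tm was at the threshold (adjusted p by limma = 0.0499) and lost its call when any library but the colons of mice 786 and 783 was left out (0.0555 to 0.197). mt-Ty lost it without Ctrl colon mouse 787 (0.101), Ctrl bladder mouse 785 (0.0796), or Ctrl bladder mouse 788 (0.0774).

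In Y/T KO mice 9 of 32 members were called, beside 51.3% of all genes (25.8% higher and 25.6% lower in the colon). mt-Rnr2 was higher in the colon (0.68, SE 0.16, adjusted p by limma = 0.00332). Lower were mt-Tv (-2.997), mt-Ty (-2.50), mt-Tw (-1.77), mt-Tm (-1.49), mt-Tl1 (-1.17), mt-Tt (-1.14), mt-Nd5 (-0.96), and mt-Nd2 (-0.85). The number lower in the colon was 8, and it was 3 without the colon of mouse 783, 5 without the colon of mouse 780, and 4 without the bladder of mouse 780. When the colon of mouse 783, where mt-Rnr1 was listed at 0, was left out, mt-Rnr1 was higher in the colon in both genotypes (1.66 in Ctrl, 0.61 in Y/T KO).

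The tRNA genes were dominated by a few. The 5 with the highest mean, mt-Tl1 (67.2 to 479 TPM), mt-Tm (33.1 to 213), mt-Tw (9.37 to 75.1), mt-Ti (7.89 to 68.3), and mt-Tg (3.03 to 20.4), held 95.0% of tRNA TPM, and all lie on the plus strand. The other 17 stood between 0 and 15.6 TPM. The libraries were poly(A)-selected, and the tRNA genes are 59 to 75 bases long. Whether the reads over them came from excised tRNAs or from longer RNAs was not tested. mt-Tl1 ends at MT:2750, next to mt-Nd1 (from MT:2751), and mt-Tm at MT:3913, next to mt-Nd2 (from MT:3914). mt-Ti (from MT:3706) overlaps the end of mt-Nd1 (MT:3707), and mt-Tw (from MT:4950) that of mt-Nd2 (MT:4951). tRNA genes on the minus strand together gave 3.31 to 24.7 TPM per library against 123 to 851 on the plus strand. For mt-Tv, between the rRNA genes, Ctrl colon gave 0.57, 0.70, and 0.12 TPM against 2.81, 2.14, and 4.69 for Ctrl bladder. In Y/T KO it was at 0.43, 0.11, and 0.05 in the colon and at 2.45, 2.22, and 2.13 in the bladder.

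Nuclear genes for the same complexes behaved differently between tissues. Of 81 nuclear subunit genes of complexes I to IV and the ATP synthase, 79 were tested. In Ctrl, 74 were higher in the colon than in the bladder, 60 of them called, and 1 was called lower. Over all genes, 25.1% were called higher and 25.3% lower. The median log2 fold change of the tested nuclear subunit genes was 0.91 (0.01 over all genes). In Y/T KO 76 were higher, 70 called, and 1 called lower, with a median of 1.02, beside 25.8% of all genes called higher and 25.6% lower. Examples in Ctrl were Cox7a1 (4.16), Cox5a (2.16), Ndufa6 (1.84), Sdhd (1.66), and Uqcrfs1 (1.48). Cox8b had the opposite direction and was not called (-3.29, adjusted p by limma = 0.0557). The summed nuclear TPM divided by the summed TPM of the 5 mitochondrial mRNAs was 1.02, 0.478, and 0.960 in Ctrl colon and 1.08, 2.33, and 1.44 in Y/T KO colon. For bladder it was 0.540, 0.592, and 0.557 in Ctrl and 0.621, 0.534, and 0.526 in Y/T KO. Bladder libraries lay closely together, while in the colon Ctrl mouse 786 was lowest and Y/T KO mouse 783 highest.

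**Figure D5:**
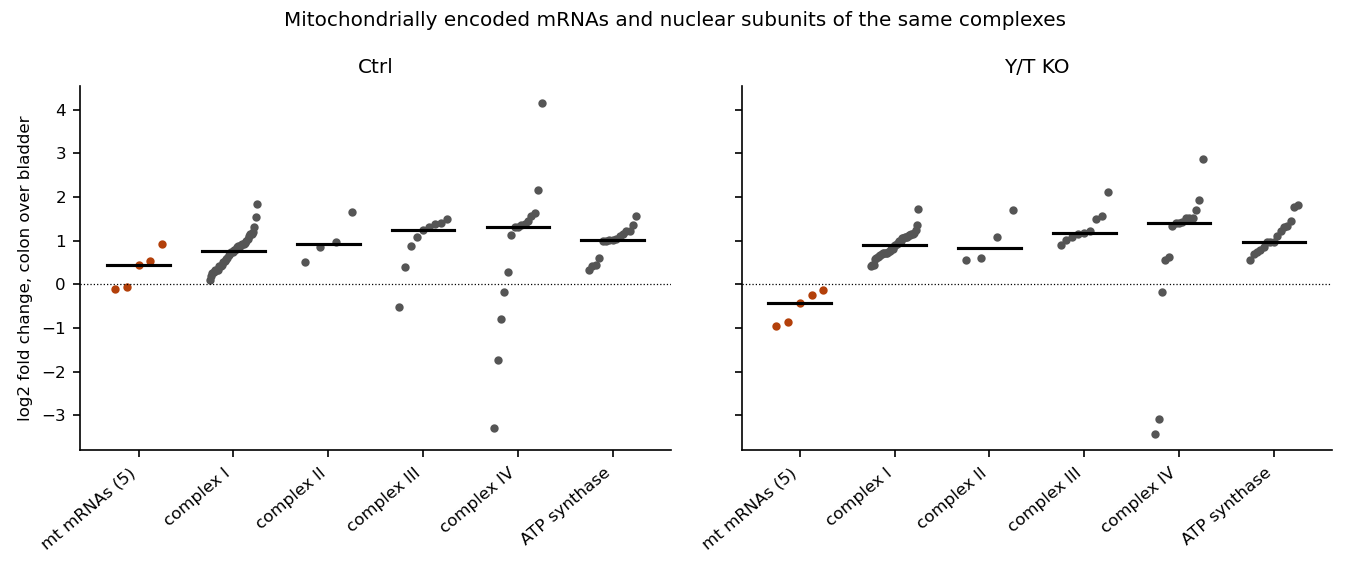
Log2 fold change of colon over bladder for 5 mitochondrial mRNAs and for the tested nuclear subunits of each complex, in Ctrl and Y/T KO, with 1 point per gene and a line at the median. Nuclear medians lie above 0 in all lists, while the mitochondrial mRNAs lie between -0.10 and 0.93 in Ctrl and between -0.96 and -0.13 in Y/T KO.

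Between genotypes, 1 nuclear gene of the lists passed the test in each tissue. The lists of respiratory subunits had 36 (complex I), 4 (II), 9 (III), 14 or 15 (IV, colon or bladder), and 15 (ATP synthase) tested genes. Those of mitochondrial DNA replication and transcription, RNA processing and decay, biogenesis, and mitochondrial ribosomal proteins had 17, 19, 12, and 77. Over all genes, calls were rare too: 24 of 17500 for colon (0.137%) and 55 of 18237 for bladder (0.302%). Whether the lists differed from all genes in their rate of calls was not tested. In the bladder Atp5d, a subunit of the ATP synthase, was at 239, 248, and 257 TPM in Ctrl and 170, 155, and 177 in Y/T KO mice (log2 fold change of -0.57, SE 0.07, adjusted p by limma = 0.0480). In the colon Mrpl32, a protein of the large mitochondrial ribosomal subunit, was at 24.3, 32.9, and 26.1 TPM in Ctrl and 10.97, 9.94, and 11.2 in Y/T KO (-1.32, SE 0.16, adjusted p by limma = 0.0362). The call for Atp5d was lost when any of the 6 bladder libraries was left out (adjusted p 0.0725 to 0.211), and that for Mrpl32 when any colon library but that of Y/T KO mouse 759 was (0.1002 to 0.147). No other estimate passed the test. In the bladder the largest of these were those of Cox6a2 (2.94, SE 2.86, adjusted p by limma = 0.673) and Cox8b (2.14, SE 1.22, 0.466), the muscle forms of complex IV subunits. Cox8b was at 46.3 and 65.6 TPM in the libraries of mice 783 and 780, which also had the high striated sums, and at 2.11 to 26.3 in the other 4. In the colon the largest of these were those of Cox8b (1.98, SE 1.06, adjusted p by limma = 0.602), Atp5e (1.04, SE 0.24, 0.264), and Mrpl17 (1.04, SE 0.21, 0.192). Cox8b was at only 0 to 2.50 TPM in the colon libraries, with the 0 in Ctrl mouse 787. Within the list of RNA processing and decay, the largest in the bladder was that of Lrpprc, an RNA-binding protein that stabilises mitochondrial mRNA (0.51, SE 0.12, adjusted p by limma = 0.151).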

How the data were processed

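The authors made libraries with a stranded poly(A) kit (TruSeq) and, per the submitters' processing notes, used bcl2fastq, FastQC, HISAT2, StringTie, and DESeq2 with GRCm38 (versions not given in the sources used here). The deposited StringTie tables hold TPM, FPKM, and coverage for each gene. The deposited TPM have 1 total in all libraries, the deposited FPKM are scaled to the mapped fragments, and the deposited coverage is a mean read depth per base. Gene IDs were summed, which gave 54532 genes. Mitochondrially encoded genes and the nuclear lists were chosen with earlier results of these data known. The 13 protein-coding and 2 rRNA genes are all described; of the tRNA genes, those called in any comparison and the 5 with the highest mean; of the other lists, genes called between genotypes and the largest changes.

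Median-of-ratios size factors rescaled the TPM, and genes that reached 0.5 TPM in 3 or more libraries were fitted as log2(TPM + 0.1) with limma 3.58.1 in R 4.3.3 (trend and robust), with Benjamini-Hochberg adjustment over all genes, two-sided. Fold changes of low genes are understated by the pseudocount. Copies were compared with blastn 2.17.0 against GENCODE M21 transcripts. The fit was also run on simulated data, drawn independently for each gene, which cannot show how it behaves with correlated genes. Each library is a separate tissue sample, and the mice 788, 783, and 780 are in both tissues: same-mouse deviations correlated at -0.009, 0.067, and 0.044 over 19773 genes. Python 3.11.15 with pandas 2.3.3 handled the tables and matplotlib 3.10.9 drew the plots. The depth behind a value is given by the deposited coverage; read counts were not used, and no counting interval was computed. Alternatives were other pseudocounts, filters, scalings, FPKM, leaving out libraries, a joint fit, and the mouse as a block.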

Additional observations from a re-analysis of the deposited data

Results flagged for a closer look

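In 3 members (mt-Rnr2, mt-Cytb, and mt-Ty) every Y/T KO library was below every Ctrl library in the colon and above every Ctrl library in the bladder. Of the 29 members tested in both tissues these were 2, beside 0.779% of all 16298 genes tested in both. For mt-Rnr2 the difference between the tissues in the knockout effect was -1.18 (log2, limma adjusted p = 0.124), and for mt-Cytb -0.96 (limma adjusted p = 0.273), so neither passed the test. For mt-Ty the difference was not tested, because the gene was too low in the colon; in the bladder its log2 fold change was 2.46 at values of 0 to 1.22 TPM.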

How the results depend on the processing

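The number of members called in each comparison kept its side in most settings. In the colon it was 0 under every setting. In the bladder the 1 member called higher became 2 with TPM as deposited, with TPM rescaled to the nuclear sum, and at an adjusted p under 0.1, and 0 without the trend and robust options and with all 12 libraries in 1 fit; leaving out libraries gave 0 to 1. For tissues in Ctrl, leaving out libraries gave 3 to 6 higher and 2 to 4 lower, and in Y/T KO 1 to 2 higher and 3 to 12 lower. With the mouse as a replicate block the counts were 3 lower and 4 higher in Ctrl, 8 lower and 1 higher in Y/T KO, and 0 in the interaction, as without it. The log2 ratio of summed TPM, Y/T KO over Ctrl, ran over left-out libraries from -1.16 to -0.54 (colon) and from 0.01 to 0.10 (bladder) for protein-coding genes, from -0.81 to -0.22 and 0.79 to 0.86 for rRNA genes, and from -1.13 to -0.35 and -0.39 to -0.25 for tRNA genes.

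Of 1096 alternative values for 58 single-gene results, 27 had the opposite sign. They belonged to 14 results, of which 0 were called in the setting reported. mt-Nd6 between tissues turned negative with TPM as deposited (-0.19 in Ctrl, -0.14 in Y/T KO) and rescaled to the nuclear sum (-0.18 and -0.16). Over left-out libraries the sign changed in these ranges: mt-Nd4 in the colon -2.07 to 0.43, interaction -2.30 to 0.22, and Ctrl tissues -1.51 to 0.52; mt-Nd6 in the colon -0.68 to 0.20, interaction -0.36 to 0.52, Ctrl tissues -0.076 to 0.23, and Y/T KO tissues -0.29 to 0.59; mt-Nd2 in the bladder -0.15 to 0.023 and Ctrl tissues -0.29 to 0.12; mt-Nd5 in the bladder -0.12 to 0.073 and Ctrl tissues -0.45 to 0.20. Between Y/T KO tissues the ranges were -0.53 to 0.14 for mt-Nd1, -0.36 to 0.19 for mt-Co1, and -6.09 to 0.61 for mt-Rnr1, each positive only without the colon of mouse 783, where mt-Rnr1 was listed at 0, so that the low end for this gene rests on that 0; without it the gene was called. The cause was not tested. Coverage was 956 to 60796 reads per base for the 5 abundant mRNAs, 4.54 to 775 for the 5 highest tRNA genes, and 0 to 26.6 for the other 17 tRNA genes.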
